A study of Mus musculus with 58 samples.

Results

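Cell cycle and proliferation genes were examined in bulk RNA sequencing of mouse prefrontal cortex. They were 44 listed genes that act in DNA replication, mitosis or cytokinesis, taken by symbol from the deposited table, where their normalised counts averaged 10 or more. All 44 were in the table of 18088 genes and all 44 were tested. The list itself holds no threshold on a difference, but it was drawn up with earlier results of these data known. The table covered 58 C57BL/6J mice of both sexes, labelled heterozygous for Kmt5b (HT) or wild type (WT), and Kmt5b encodes a histone H4 lysine methyltransferase. Pups were given lithium, fluoxetine or vehicle in the dam's milk for 3 weeks, between postnatal days 3 and 24, and cortex was taken on day 25. The groups were 10 HT lithium, 10 HT fluoxetine, 10 HT vehicle, 8 WT lithium, 10 WT fluoxetine and 10 WT vehicle libraries, each with females and males in equal number. The labels gave no dose, litter or dam, so the p-values measure the spread between these animals, and an effect of litter was not tested. The nature of the Kmt5b allele is not given in the sources used here.

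Dividing cells switch these genes on in order. In late G1 the E2F factors turn on genes for origin licensing, the replication fork and nucleotide supply. Genes of mitosis follow in G2, through FOXM1 and its partners at short promoter elements, and they are silenced again by the DREAM complex when a cell leaves the cycle. At weaning age nearly all cortical neurons have left the cycle. Oligodendrocyte precursors are the main dividing cells of the cortex at that stage, with smaller contributions from microglia, endothelium and, near the ventricle, stem cells and neuroblasts.

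Promoters of 4 members are shown because they stand for different roles and because their genes were lower in HT lithium libraries, as described further on. Top2a encodes topoisomerase II alpha, Mcm6 a helicase subunit, Prc1 a midzone microtubule bundler and Cdk1 the mitotic kinase. Each sequence is the RefSeq promoter in GRCm38.p6, read 5′ to 3′ on the gene's strand, with 250 bases before and 50 after the annotated start. Capitals mark matches on either strand to the CHR element of mitotic genes (TTTGAA or TTCGAA), the CCAAT box (CCAAT) or an E2F motif (TTTCCCGC, TTTGGCGC, TTTCGCGC or TTTGCCGC).
Top2a, chr11:99024140-99024439, minus strand: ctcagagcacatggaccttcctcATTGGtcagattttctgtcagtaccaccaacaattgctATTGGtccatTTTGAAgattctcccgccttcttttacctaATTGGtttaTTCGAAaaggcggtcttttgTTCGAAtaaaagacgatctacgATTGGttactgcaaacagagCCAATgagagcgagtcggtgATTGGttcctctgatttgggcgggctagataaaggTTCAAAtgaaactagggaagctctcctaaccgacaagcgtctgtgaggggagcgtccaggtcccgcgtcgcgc
Prc1, chr7:80294201-80294500, plus strand: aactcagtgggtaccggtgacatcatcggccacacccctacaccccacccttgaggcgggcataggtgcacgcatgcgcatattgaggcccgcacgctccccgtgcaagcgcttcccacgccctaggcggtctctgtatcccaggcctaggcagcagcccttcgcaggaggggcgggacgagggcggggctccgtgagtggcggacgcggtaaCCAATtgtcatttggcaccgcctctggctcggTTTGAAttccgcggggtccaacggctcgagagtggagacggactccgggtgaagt
Cdk1, chr10:69352863-69353162, minus strand: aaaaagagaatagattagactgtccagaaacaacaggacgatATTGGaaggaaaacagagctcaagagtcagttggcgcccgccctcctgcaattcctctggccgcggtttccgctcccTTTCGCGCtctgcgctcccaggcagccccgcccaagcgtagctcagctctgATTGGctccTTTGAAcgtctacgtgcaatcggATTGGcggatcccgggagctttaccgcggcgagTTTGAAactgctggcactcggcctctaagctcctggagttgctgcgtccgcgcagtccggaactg
Mcm6, chr1:128359656-128359955, minus strand: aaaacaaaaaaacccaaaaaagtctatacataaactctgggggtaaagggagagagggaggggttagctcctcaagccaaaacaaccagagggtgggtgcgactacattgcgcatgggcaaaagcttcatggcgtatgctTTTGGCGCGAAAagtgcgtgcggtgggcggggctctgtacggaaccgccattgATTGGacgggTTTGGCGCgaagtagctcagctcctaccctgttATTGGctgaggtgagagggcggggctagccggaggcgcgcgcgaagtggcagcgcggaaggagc
The Top2a promoter held 4 CHR and 6 CCAAT matches and no E2F match. That of Prc1 held 1 CHR and 1 CCAAT match, and that of Cdk1 held 2 CHR, 3 CCAAT and 1 E2F match. Mcm6 held 0 CHR, 2 CCAAT and 3 E2F matches. A match is a string of letters and was not tested as a binding site.

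RefSeq promoters were matched for 36 of the 44 members, 39 promoters in all. Those of Kif20a, Gins2, Aurkb, Pbk, Mcm4, Ccna2, Foxm1 and Tpx2 were not used here. A CHR match was present in 69.2% of the members' promoters, against 19.2% of all 32851 promoters of the same length. The CCAAT box was present in 84.6% of the members' promoters and in 37.4% of all promoters. An E2F match was present in 15.4% of the members' promoters and in 2.26% of all. Within the members, the 10 promoters of replication and nucleotide genes held a CHR match in 30% and an E2F match in 40%. The other 29 promoters held a CHR match in 82.8% and an E2F match in 6.90%. Each of these motifs was counted in both orientations, and overlapping matches were counted.

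Library depth, as reads recovered from the normalised counts, lay between 23471676 and 38561389 per library. Kmt5b was not lower in libraries labelled HT. Its mean normalised count was 1744 ± 73.8 in HT lithium, 1750 ± 128 in HT fluoxetine and 1709 ± 90.2 in HT vehicle, against 1592 ± 132 in WT lithium, 1741 ± 124 in WT fluoxetine and 1616 ± 119 in WT vehicle (SD, n = 10 each and 8 in WT lithium). The genotype names below are therefore those of the labels. Some libraries held little or much RNA of olfactory bulb output neurons: Eomes, a marker of them, was under 20 normalised counts in 10 libraries and over 800 in 3. None of the 10 was an HT vehicle library and 3 of them were HT lithium libraries.

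Levels of the members spread widely. On a scale of mean normalised count per kilobase of exon, the level of Pcna, the replication clamp, was 370.3 and the highest of the 44. E2f1, a transcription factor of the G1 to S step, had a level of 131 and the helicase subunit Mcm7 a level of 71.0 on that scale. Mki67 (10.7), Top2a (9.66) and Cdk1 (5.05) were lower, and the mitotic kinesin Kif15, at 1.84, was the lowest. Aurkb was at 0 in 1 WT vehicle library, and no other member was at 0 in any library. Within groups, the spread of Top2a between libraries was 33.4% of its mean, against 10.9% from counting reads. That spread was 4.57 times the counting error for Anln, 3.17 times for Mki67 and 3.06 times for Top2a, and near it for Aurka (1.06 times) and Birc5 (1.17 times). The normalised counts of Pcna, Ccnb1, Ccnb2, Kif4 and Tyms are uncertain in so far as annotated pseudogene copies could share their reads.

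Across the 6 groups, HT lithium libraries had the lowest group mean for 23 of the 44 members. The next were WT lithium with 9, WT vehicle with 6, WT fluoxetine with 5, HT fluoxetine with 1 and HT vehicle with 0. The highest group mean was in HT vehicle for 20 members, in HT fluoxetine for 18, in HT lithium for 4, and in WT fluoxetine and WT vehicle for 1 each. The same counts were not taken over all genes, so whether the members differ from other genes in this was not tested. The summed normalised count of all 44 was 3906 to 4510 in HT lithium, 4449 to 5722 in HT fluoxetine, 4468 to 5448 in HT vehicle, 3943 to 4678 in WT lithium, 4214 to 5218 in WT fluoxetine and 4221 to 4898 in WT vehicle. The ranges of HT lithium and HT vehicle overlapped only between 4468 and 4510. The HT vehicle libraries did not spread evenly: 5 had sums of 4468 to 4713 and 5 had sums of 5011 to 5448. Abundant members weigh most in this sum. Over all libraries Pcna averaged 889, E2f1 414 and Racgap1 413 normalised counts, against 87.1 for Top2a.

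Levels of 5 members of different roles are given for every group, in normalised counts. Top2a averaged 52.5 ± 18.7 in HT lithium, 109 ± 35.0 in HT fluoxetine, 106 ± 32.5 in HT vehicle, 74.2 ± 25.0 in WT lithium, 97.1 ± 31.5 in WT fluoxetine and 81.1 ± 26.8 in WT vehicle (SD, n = 10 each and 8 in WT lithium for each gene). Mki67 averaged 77.0 ± 21.7 in HT lithium, 123 ± 57.5 in HT fluoxetine, 136 ± 41.8 in HT vehicle, 91.3 ± 26.3 in WT lithium, 115 ± 28.6 in WT fluoxetine and 99.1 ± 26.1 in WT vehicle. For Cdk1 the means were 18.3 ± 5.26 in HT lithium, 30.8 ± 9.96 in HT fluoxetine, 30.9 ± 5.25 in HT vehicle, 24.4 ± 9.48 in WT lithium, 21.8 ± 11.1 in WT fluoxetine and 23.3 ± 8.23 in WT vehicle. In these 3 mitotic genes and in Pcna the HT lithium mean was the lowest of the 6. Mcm2 averaged 102 ± 18.8 in HT lithium, 102 ± 12.4 in HT fluoxetine, 124 ± 11.5 in HT vehicle, 99.7 ± 16.6 in WT lithium, 105 ± 15.2 in WT fluoxetine and 117 ± 16.2 in WT vehicle, so that its lowest mean was in WT lithium. Pcna averaged 846 ± 49.96 in HT lithium, 914 ± 65.6 in HT fluoxetine, 922 ± 87.4 in HT vehicle, 859 ± 84.5 in WT lithium, 884 ± 32.4 in WT fluoxetine and 900.5 ± 74.8 in WT vehicle. Among the 3 WT groups the ranges of all 5 genes overlapped.

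**Figure D1:**
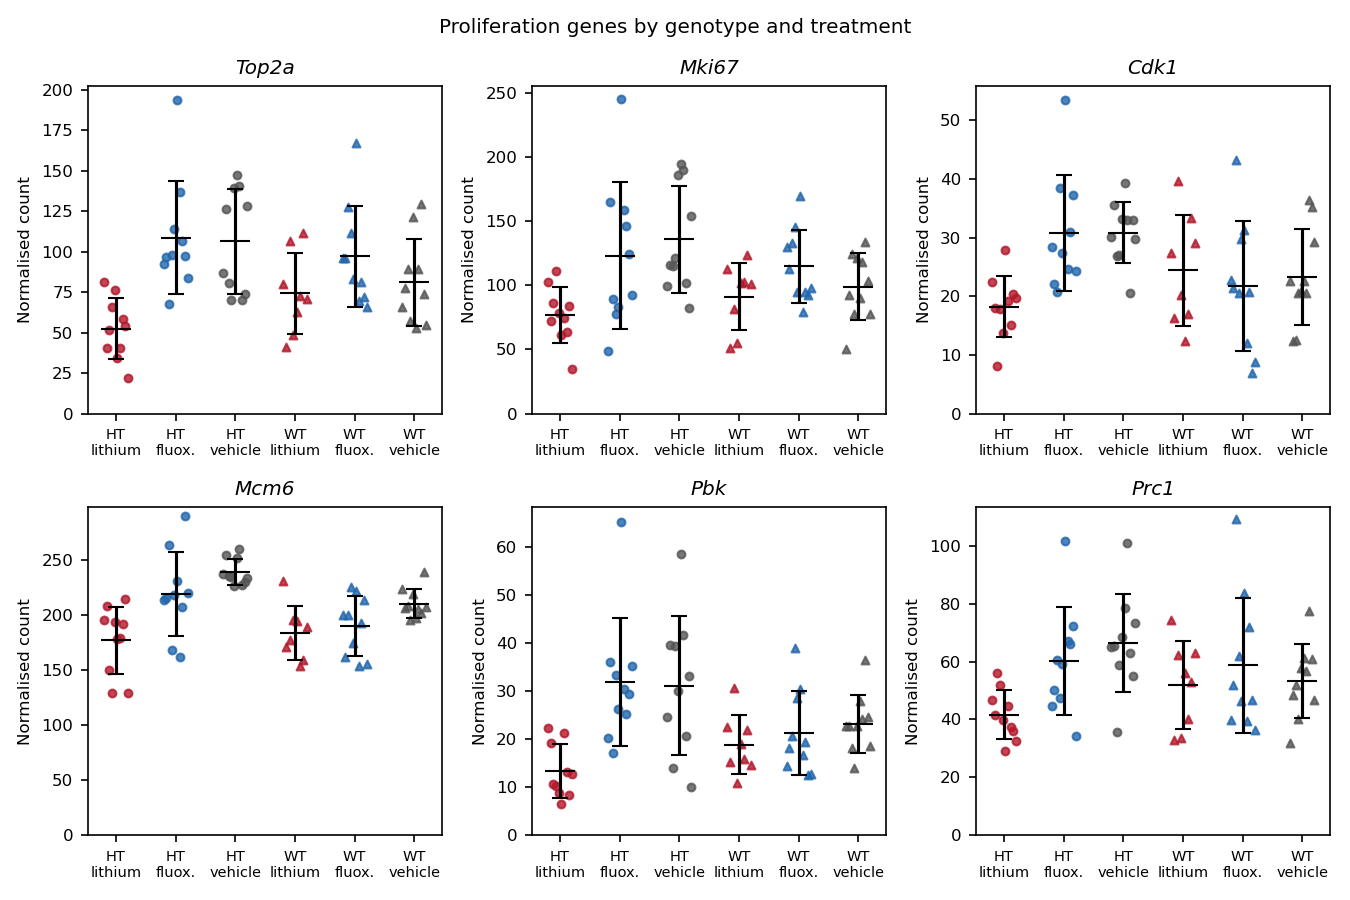
Normalised counts of 6 members (vertical axis) in every library, by group; points are libraries (circles HT, triangles WT), the horizontal bar is the group mean and the whisker its SD, with n = 10 per group and 8 for WT lithium. For Mcm6, all 10 HT lithium libraries (129 to 214) lie below all 10 HT vehicle libraries (226 to 260), while Pbk and Prc1 overlap between those groups.

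More members passed for lithium in HT mice than in any other comparison of the design. In HT lithium against HT vehicle libraries, 16 of the 44 members fell and none rose (limma, Benjamini-Hochberg adjusted p under 0.05 over 16669 genes). Of all genes tested, 6.61% passed in the lower direction and 7.46% in the higher. Differences of the members lay between -1.11 and 0.13 on the log2(normalised count + 1) scale, with a median of -0.29 against -0.0015 over all genes, and 41 of 44 were below 0. Those that fell spanned chromosome structure, the helicase, mitotic kinases and cytokinesis. In bulk tissue, fewer dividing cells and less of each RNA per dividing cell cannot be told apart.

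Chromosome structure had the lowest median of the roles, -0.81. All 3 of its members fell: Top2a, Mki67, which coats mitotic chromosomes, and Cenpf, a kinetochore protein. Top2a (chr11:98992943-99024189, minus strand), which untangles DNA before segregation, ranged from 22.1 to 81.3 with a median of 52.7 normalised counts in HT lithium, against 70.2 to 147 with a median of 107 in HT vehicle. Of the 10 HT lithium libraries 8 lay below every HT vehicle library. Top2a fell by 1.03 on that log2 scale (SE 0.197, adjusted p = 0.000369, limma), to 0.488-fold of vehicle. Mki67 (chr7:135689784-135716361, minus strand) ranged from 34.8 to 112 with a median of 76.8 in HT lithium and from 82.2 to 195 with a median of 119 in HT vehicle. Its groups overlapped, with 6 HT lithium libraries below every HT vehicle library, and it fell by 0.81 (SE 0.187, adjusted p = 0.00256, limma). Cenpf fell by 0.61 (adjusted p = 0.0148, limma).

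Among the 9 licensing and fork members, 3 fell, and all 3 were subunits of the MCM helicase that unwinds DNA at the fork. Mcm6 (chr1:128331590-128359664, minus strand) ranged from 129 to 214 with a median of 186 normalised counts in HT lithium, against 226 to 260 with a median of 235 in HT vehicle. These ranges did not overlap. It fell by 0.45 (SE 0.0899, adjusted p = 0.000552, limma). Mcm3 fell by 0.35 (adjusted p = 0.0329) and Mcm2 by 0.28 (adjusted p = 0.0398) in the same limma fit. The other 6 were all below 0 without passing, among them Mcm4 at -0.18 (adjusted p = 0.0608), Pcna at -0.12 (adjusted p = 0.0633) and Mcm7 at -0.15 (adjusted p = 0.229). Pcna ranged from 736 to 921 with a median of 854 in HT lithium and from 846 to 1134 with a median of 920.0 in HT vehicle. Mcm2 ranged from 72.5 to 140 with a median of 100.1 in HT lithium and from 99.97 to 139 with a median of 123 in HT vehicle. For both genes the groups overlapped.

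The kinases, checkpoint proteins and ubiquitin ligase subunits of mitosis gave 3 of 7 that fell. Pbk (chr14:65805837-65817822, plus strand), a mitotic kinase, ranged from 6.44 to 22.4 with a median of 11.7 normalised counts in HT lithium, against 9.93 to 58.5 with a median of 31.5 in HT vehicle. Its ranges overlapped, though all 10 HT lithium libraries were below the HT vehicle median. It fell by 1.11 (SE 0.241, adjusted p = 0.00136, limma), the largest log2 difference of the 44. Ube2c, a ubiquitin-conjugating enzyme of the anaphase-promoting complex, fell by 0.80 (adjusted p = 0.0118, limma). Bub1b, of the spindle checkpoint, fell by 0.68 (adjusted p = 0.021, limma). Bub1 at -0.58 (adjusted p = 0.117), Cdc20 at -0.41 (adjusted p = 0.078), Aurka at -0.26 (adjusted p = 0.183) and Plk1 did not pass.

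Of the 4 cyclin and kinase members, Cdk1 and Ccna2 fell. Cdk1 (chr10:69335146-69352938, minus strand) ranged from 8.19 to 27.9 with a median of 18.7 normalised counts in HT lithium, against 20.6 to 39.4 with a median of 31.6 in HT vehicle. Of the 10 HT lithium libraries 8 were below every HT vehicle library, and Cdk1 fell by 0.76 (SE 0.207, adjusted p = 0.00979, limma). Ccna2, cyclin A2, fell by 0.35 (adjusted p = 0.0434, limma). The B cyclins did not pass: Ccnb1 was at -0.40 (adjusted p = 0.0971) and Ccnb2 at 0.02.

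Cytokinesis gave 3 of 6. Prc1 (chr7:80294450-80316259, plus strand) ranged from 29.0 to 56.2 with a median of 40.7 normalised counts in HT lithium, against 35.5 to 101 with a median of 65.1 in HT vehicle. The ranges overlapped, with all 10 HT lithium libraries below the HT vehicle median, and Prc1 fell by 0.65 (SE 0.172, adjusted p = 0.00853, limma). Ect2, which activates RhoA at the cleavage furrow, fell by 0.59 (adjusted p = 0.0158), and the midzone kinesin Kif20a fell by 0.55 (adjusted p = 0.0174), both in limma. Ect2's binding partner Racgap1 was at 0.02 and Kif23, the kinesin that forms a complex with Racgap1, at 0.13, 2 of the 3 members above 0. Of the chromosomal passenger complex, the kinase Aurkb fell by 0.94 (adjusted p = 0.0277, limma), while its partners Cdca8 and Birc5 were both at -0.30 and did not pass. Of the 8 spindle members only Nusap1, a microtubule-associated protein, fell, by 0.64 (adjusted p = 0.0438, limma). Kif15 at -0.52 (adjusted p = 0.0822) and Aspm at -0.43 (adjusted p = 0.0775) did not pass. Both nucleotide genes, Rrm2 and Tyms, and both transcription factors, Foxm1 and E2f1, were below 0 and did not pass.

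By sex, 36 of the 44 members were below 0 in HT females and HT males alike, 1 was above 0 in both and 7 were mixed. The median difference was -0.20 in HT females and -0.28 in HT males. Top2a was at -0.66 in females and -1.41 in males, and Mki67 at -0.48 in females and -1.15 in males. Mcm6 was at -0.46 in females and -0.45 in males, and Pbk at -1.01 in females and -1.22 in males. The differences between the sexes in this response were not tested.

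Several alternatives bear on the count of 16, and shares of all genes are given only for the tests on 54 libraries. Without the HT lithium male 5 library, which had the lowest summed level of the 44, it was 10. Tests on whole reads could use 54 libraries, leaving out HT lithium male 3 and HT vehicle female 2, male 1 and male 5. In edgeR and in DESeq2 on those libraries 7 members fell, against 2.6% and 3.19% of all genes in that direction, and in limma on the same libraries 6 fell, against 2.78%. Those 3 HT vehicle libraries were among the 5 with the higher summed levels. Cenpf, Ect2, Mcm6, Mki67, Pbk and Top2a were lower in all 3 of these tests, Prc1 in both count tests, and Cdk1 in none. In edgeR the log2 difference of Top2a was -0.95 (adjusted p = 0.00923) and that of Mcm6 was -0.43 (adjusted p = 0.00935). Without the 10 libraries under 20 counts of Eomes 14 fell, 13 of them among the 16, and without the 3 over 800 counts the same 16 fell. Top2a, Mki67 and Mcm6 passed under all 73 settings run, the reported one included. Nusap1 passed under 53 of them, Ccna2 under 54 and Mcm2 under 56, the fewest of the 16. Of the 73 settings 58 left out 1 library each, and most of those libraries were in neither of the compared groups. None of Nusap1, Ccna2 and Mcm2 passed without HT lithium female 3, female 5, male 2 or male 5. The same held without HT vehicle female 5, male 1 or male 5, each left out alone.

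**Figure D2:**
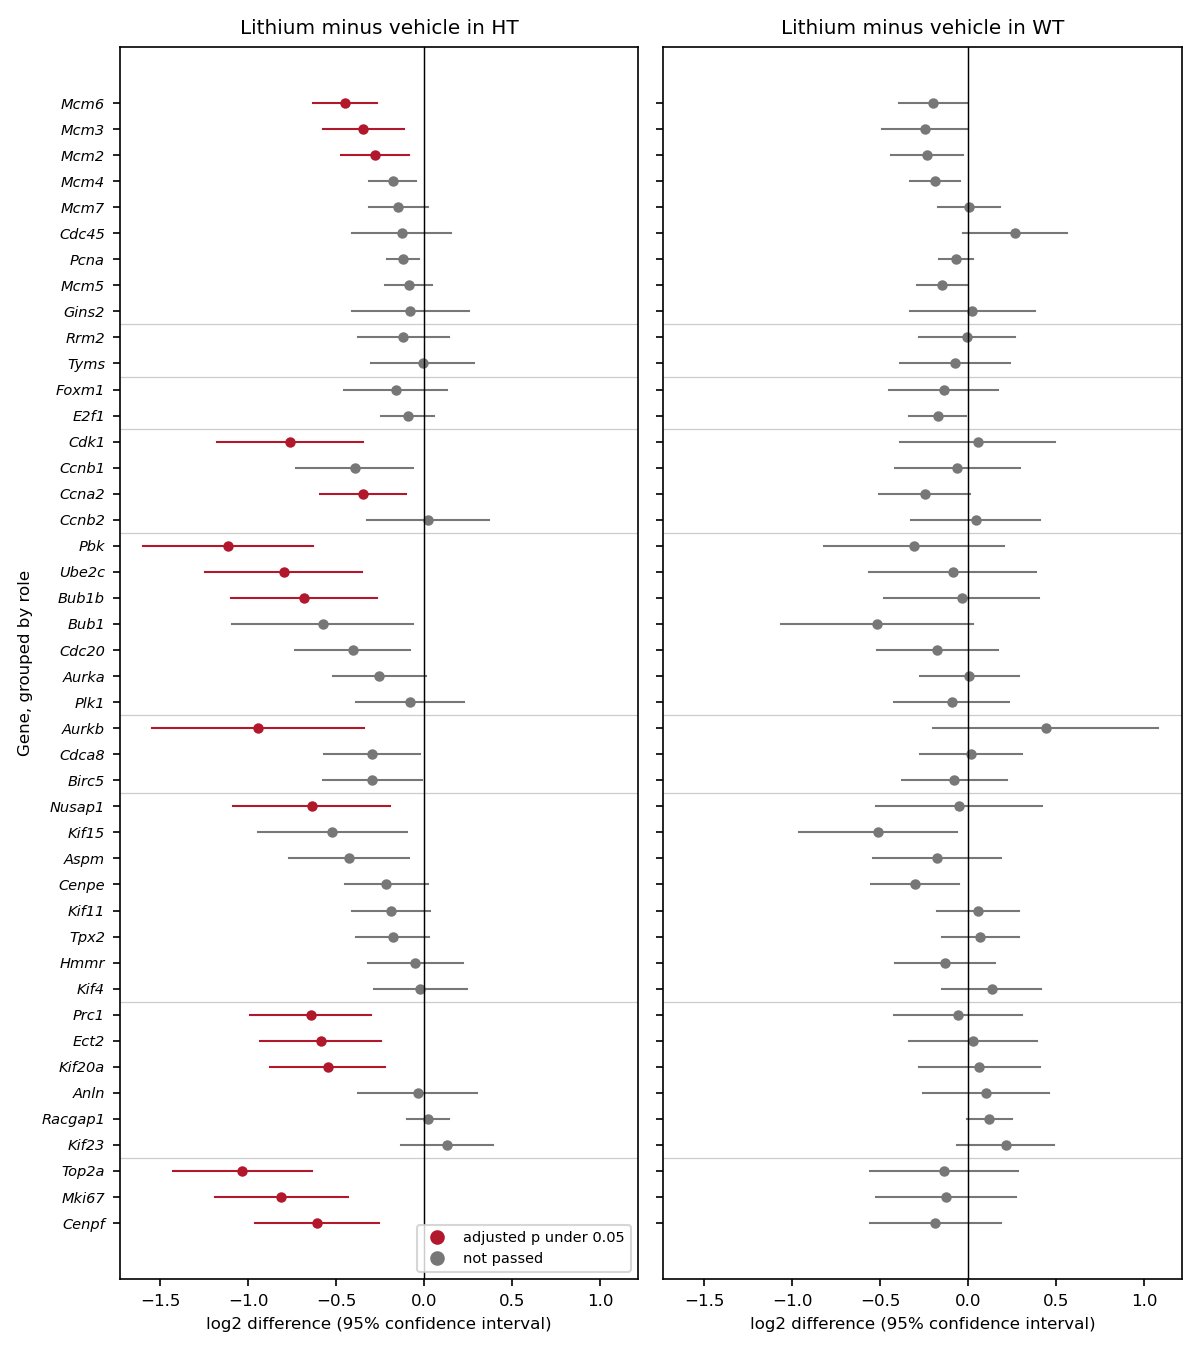
The log2 difference of each of the 44 members (horizontal axis; points, with 95% confidence intervals as lines) between lithium and vehicle in HT (left) and in WT (right); members are grouped by role on the vertical axis and red marks an adjusted p under 0.05. On the left 16 members are red and 41 of 44 lie below 0; on the right none is red and 28 of 44 lie below 0.

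Other genes of the same processes were followed as a list of 26 further replication genes and one of 34 further mitosis genes. In HT lithium against HT vehicle, 8 of the 26 replication genes fell, none rose and 18 did not pass, with a median of -0.16, where 6.61% of all genes fell. Lig1, which joins Okazaki fragments, fell by 0.32 (adjusted p = 0.00352, limma), and the clamp loader subunit Rfc5 by 0.25 (adjusted p = 0.0124, limma). Uhrf1, which keeps DNA methylation through replication, fell by 0.74 (adjusted p = 0.0158, limma), and the licensing factor Cdt1 by 0.51 (adjusted p = 0.0199, limma). Of the 34 mitosis genes 6 fell, none rose and 28 did not pass, with a median of -0.17. They included the kinesins Kif22, which fell by 0.47 (adjusted p = 0.00486, limma), and Kif18b, by 0.79 (adjusted p = 0.0257, limma). The kinetochore scaffold Knl1 fell by 0.82 (adjusted p = 0.0101, limma) and Ckap2l, a spindle protein, by 0.72 (adjusted p = 0.0099, limma).

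A further list held genes that control entry into the cycle. Of 24 genes of G1 control, the retinoblastoma family and the E2Fs, 3 rose, none fell and 21 did not pass in HT lithium, with a median of 0.01. That count is close to the 7.46% of all genes that passed in the higher direction. Ccnd2, cyclin D2, rose by 0.36 (adjusted p = 2.4e-05, limma), E2f3 by 0.17 (adjusted p = 0.0177) and the repressor E2f6 by 0.13 (adjusted p = 0.00665). In WT lithium against WT vehicle Ccnd2 rose by 0.30 (adjusted p = 0.00191, limma) too, as did Mybl2, the B-MYB of mitotic promoters, by 0.50 (adjusted p = 0.0123). None of 6 inhibitors of cyclin-dependent kinases passed in HT lithium, with a median of -0.07, 1 at an unadjusted p under 0.05.

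Markers of cell types that can divide were measured in the same libraries. The counts are to be read against the 6.61% of all genes that passed lower and the 7.46% that passed higher in this comparison. Of 8 neural stem cell and progenitor markers 4 fell in HT lithium against HT vehicle, none rose and 4 did not pass: Nes by 0.39 (adjusted p = 0.00448), Sox2 by 0.27 (adjusted p = 0.00551), Vim by 0.22 (adjusted p = 0.0231) and Hes5 by 0.40 (adjusted p = 0.0363, limma). The summed level of the 8 was 3375 to 3952 in HT lithium and 3972 to 4737 in HT vehicle, without overlap. Their mean log2 level was lower by 0.18 in HT lithium (adjusted p = 0.0164 over 63 tests, permutation test with libraries exchanged within sex). No other marker list passed that test in this comparison. Which cells these 8 RNAs came from was not tested, and no list of astrocyte markers was measured. Of 10 oligodendrocyte precursor markers 2 fell and 8 did not pass. Those were Sox10, by 0.36 (adjusted p = 0.0053, limma), and Olig2, by 0.28 (adjusted p = 0.0115, limma), both also expressed in later stages of the lineage. The summed level of the 10 was 9802 to 11338 in HT lithium and 9226 to 12406 in HT vehicle, which overlapped. None of 11 neuroblast markers passed, with a median of -0.41 and a summed level of 17397 to 24895 in HT lithium and 20108 to 26844 in HT vehicle. None of 4 olfactory bulb output markers passed, with a summed level of 137 to 5383 in HT lithium and 1218 to 6740 in HT vehicle. Of 10 endothelial markers Tek, Cldn5, Kdr and Cdh5 fell and Ly6c1 rose. None of 10 microglial markers passed. None of 3 ventricle lining, 5 erythroid or 8 cortical excitatory neuron markers passed. Ttr, of the ventricle lining, was at 0 in at least 1 library, and no other marker of these lists was at 0 in any. The part of these cell types in the members' differences was not tested. After adding the level of the bulb markers as a covariate 16 members fell, 14 of them among the 16.

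In WT mice the same drug gave no member that passed. In WT lithium against WT vehicle, 0 of the 44 members passed in limma, edgeR or DESeq2, where 3.34% of all genes passed in limma. An unadjusted p under 0.05 in limma was reached by 8 members. Here and below, the share of all genes at that unadjusted threshold is not given. The median was -0.07 and 28 of 44 were below 0. Of the 16 that fell in HT, 12 were below 0 in WT and 4 above, with a median of -0.11. The WT and HT comparisons share no library. Mcm4 ranged from 189 to 270.4 with a median of 214 normalised counts in WT lithium, against 221 to 279 with a median of 239 in WT vehicle, a difference of -0.19 (adjusted p = 0.14, limma). Kif15 ranged from 8.48 to 22.4 with a median of 11.5 in WT lithium and from 9.47 to 29.0 with a median of 20.3 in WT vehicle (-0.51, adjusted p = 0.228, limma). Cenpe, the kinetochore motor, was at -0.30 (adjusted p = 0.196) and Mcm2 at -0.24 (adjusted p = 0.224). All 4 overlapped between the groups. For Top2a the medians were 71.8 in WT lithium and 75.7 in WT vehicle, and for Mki67 they were 101 in WT lithium and 98.0 in WT vehicle. After adding that bulb covariate 1 member passed, and without WT lithium female 1 there were 2.

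Whether lithium acted differently in the genotypes was tested as an interaction. The lithium effect in HT minus that in WT had a median of -0.19 over the 44 members, and 37 of 44 were below 0. None passed in limma, edgeR or DESeq2, and 0% of all genes passed in limma. An unadjusted p under 0.05 in limma was reached by 10 members. The smallest p-values were those of Aurkb at -1.39 (95% interval -2.26 to -0.51, adjusted p = 0.209), Top2a at -0.90 (-1.48 to -0.32, adjusted p = 0.211), Cdk1 at -0.82 (-1.42 to -0.21, adjusted p = 0.247) and Kif20a at -0.61 (-1.09 to -0.14, adjusted p = 0.264). A difference of the lithium response between HT and WT was thus not shown for any single member.

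Comparisons that do not use the HT vehicle libraries were added after the levels had been seen. HT lithium libraries were set against HT fluoxetine libraries, which are free of them. There 13 members fell and none rose, with a median of -0.31, where 3.27% of all genes passed in the lower and 3.52% in the higher direction. Top2a ranged from 22.1 to 81.3 with a median of 52.7 in HT lithium and from 67.6 to 194 with a median of 97.7 in HT fluoxetine, and 8 of 10 HT lithium libraries were below every HT fluoxetine library. It was at -1.07 (SE 0.197, adjusted p = 0.000285, limma). Pbk ranged from 6.44 to 22.4 with a median of 11.7 in HT lithium and from 17.1 to 65.3 with a median of 30.0 in HT fluoxetine (-1.22, adjusted p = 0.000746, limma). Aurkb did not overlap: it ranged from 1.16 to 11.2 with a median of 8.55 in HT lithium and from 11.6 to 30.0 with a median of 16.2 in HT fluoxetine (-1.20, adjusted p = 0.00842, limma). Ect2, Nusap1, Mcm3, Anln, Ccna2, Cdk1, Mcm6, Ube2c, Mki67 and Cdc45 fell as well, by 0.31 to 0.90. Without HT fluoxetine male 1, which stood apart from its group in 6 members, 7 fell, and without the libraries under 20 counts of Eomes 8 fell. With the bulb markers as a covariate 22 passed, and the share of all genes under these settings is not given. Some markers of other cell types fell in the same comparison. The summed level of the 8 neural stem cell markers was 3375 to 3952 in HT lithium and 3678 to 5006 in HT fluoxetine, that of the 10 oligodendrocyte precursor markers 9802 to 11338 in HT lithium and 10806 to 13111 in HT fluoxetine. For the 10 microglial markers it was 10184 to 11115 in HT lithium and 10286 to 13333 in HT fluoxetine, and for the 10 endothelial markers 7027 to 7938 in HT lithium and 7210 to 9715 in HT fluoxetine. All 4 lists overlapped between the groups, and 2 stem cell, 3 precursor, 3 microglial and 2 endothelial markers fell. Their part in the members' differences was not tested.

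The same HT lithium libraries were compared with WT vehicle. Of the 44 members 3 fell and 1 rose, where 3.87% and 4.27% of all genes passed in those directions, and the median was -0.11. Top2a ranged from 22.1 to 81.3 in HT lithium and from 52.7 to 129 with a median of 75.7 in WT vehicle, and fell by 0.64 (SE 0.197, adjusted p = 0.0317, limma). Pbk fell by 0.82 (SE 0.241, adjusted p = 0.0247, limma), with a median of 11.7 in HT lithium and 22.7 in WT vehicle. Mcm3 fell by 0.38 (SE 0.114, adjusted p = 0.0296, limma), with medians of 53.8 in HT lithium and 71.6 in WT vehicle. Racgap1 rose by 0.23 (SE 0.0599, adjusted p = 0.0109, limma), with 6 of 10 HT lithium libraries above every WT vehicle library. Mki67 at -0.37 (adjusted p = 0.222), Cdk1 at -0.31 (adjusted p = 0.363) and Mcm6 at -0.27 (adjusted p = 0.053) did not pass. In this comparison 4 of 8 neural stem cell, 2 of 10 precursor, 2 of 10 microglial and 4 of 10 endothelial markers fell and none rose, and their part in the members' values was not tested. Without the libraries under 20 counts of Eomes 1 member passed, and without HT lithium female 3, female 5 or male 5 there were 2. Of the 58 fits with 1 library left out, Mcm3 did not pass in 8 (adjusted p up to 0.0905, limma). Top2a did not pass in 7 (up to 0.0876) and Pbk in 2 (up to 0.0564), while Racgap1 passed in all 58. In WT lithium against WT fluoxetine, where 1.66% of all genes passed in the lower and 2.55% in the higher direction, Ccna2 fell by 0.58 (adjusted p = 0.00452) and Kif15 by 0.80 (adjusted p = 0.0281, limma). That count was 5 without WT lithium female 1 and 1 without WT lithium female 4, male 2, male 3 or male 4, without WT fluoxetine female 3, female 4 or male 4, with the fit on those groups alone, without the 3 libraries over 800 counts of Eomes, or with a minimum mean of 50.

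Between the genotypes under vehicle, most members had positive differences but none passed. In HT vehicle against WT vehicle 41 of 44 were above 0, with a median of 0.22 against 0.0012 over all genes. None passed in limma, edgeR or DESeq2, where 0.048% of all genes passed in limma. An unadjusted p under 0.05 in limma was reached by 12 members, and the share of all genes at that threshold is not given. Racgap1, which acts with Ect2 in cytokinesis, ranged from 384 to 491 with a median of 437 normalised counts in HT vehicle, against 335 to 430.0 with a median of 369 in WT vehicle. Of the 10 HT vehicle libraries 6 were above every WT vehicle library, and the difference was 0.21 (SE 0.0599, adjusted p = 0.151, limma). The spindle assembly factor Tpx2 was at 0.32 (adjusted p = 0.197, limma), with medians of 91.9 in HT vehicle and 73.9 in WT vehicle. Cdc45, of the replicative helicase, was at 0.38 (adjusted p = 0.251, limma), with medians of 37.5 in HT vehicle and 30.5 in WT vehicle. Kif20a was at 0.42 (adjusted p = 0.268, limma), with medians of 34.3 in HT vehicle and 26.3 in WT vehicle. These HT vehicle libraries are the same ones that HT lithium was compared with, so the genotype values under vehicle and the lithium values in HT are not independent. Top2a, for example, was at 0.39 in HT vehicle against WT vehicle and Mki67 at 0.44. Further, the 4 olfactory bulb output markers had a median of 1.60 and the 11 neuroblast markers a median of 0.29 in this comparison, none passing, and their part in the members' values was not tested.

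The genotypes were also compared under each drug. In HT fluoxetine against WT fluoxetine 37 of 44 members were above 0, with a median of 0.12. None passed in limma, edgeR or DESeq2, where 0.612% of all genes passed in limma. An unadjusted p under 0.05 in limma was reached by 9 members. Markers of some lists were above 0 too. They were all 8 neural stem cell markers (median 0.17), all 10 microglial (median 0.12) and all 10 endothelial markers (median 0.12). Of 10 oligodendrocyte precursor markers 9 were above 0 (median 0.10). Other lists were lower in mean log2 level: olfactory bulb output at -0.83, ventricle lining at -0.61, erythroid at -0.24, neuroblast at -0.11 and cortical excitatory at -0.05. The summed level of the stem cell markers was 3678 to 5006 in HT fluoxetine and 3356 to 4195 in WT fluoxetine, which overlapped. Their mean log2 level was higher by 0.20 in HT fluoxetine (adjusted p = 0.0457 over 63 tests, permutation test with libraries exchanged within sex). No other list passed that test in this comparison. The part of these cell types in the members' values was not tested. Cdk1 ranged from 20.7 to 53.5 with a median of 27.9 in HT fluoxetine and from 6.86 to 43.3 with a median of 21.1 in WT fluoxetine (0.60, SE 0.207, adjusted p = 0.157, limma). Plk1 was at 0.37, Birc5 at 0.33 and Pbk at 0.57, with adjusted p from 0.246 to 0.261. Without the 3 libraries over 800 counts of Eomes 1 member passed. In HT lithium against WT lithium 26 of 44 were below 0, with a median of -0.02. None passed in limma, edgeR or DESeq2, where 0.06% of all genes passed in limma. An unadjusted p under 0.05 in limma was reached by 2 members. Top2a was at -0.51 (adjusted p = 0.398), with medians of 52.7 in HT lithium and 71.8 in WT lithium. Aurkb was at -0.75 (adjusted p = 0.407), Pbk at -0.51 and Ube2c at -0.44. Endothelial markers were lower in mean log2 level by 0.15 in HT lithium (adjusted p = 0.0462, the same permutation test). No other list passed, among them precursor markers at -0.10 (adjusted p = 0.199), and only cortical excitatory markers were above 0, at 0.05. The part of these cell types in the members' values was not tested here either. With treatments averaged, all 44 were above 0 in HT against WT, with a median of 0.09. The share of all genes above 0 is not given for this or the other sign counts. Members that vary together between libraries do not give independent signs. None passed in limma, edgeR or DESeq2, where 0.468% of all genes passed in limma. An unadjusted p under 0.05 in limma was reached by 10 members. Racgap1 (0.11, adjusted p = 0.129) and Kif11 (0.18, adjusted p = 0.229) had the smallest p-values.

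**Figure D3:**
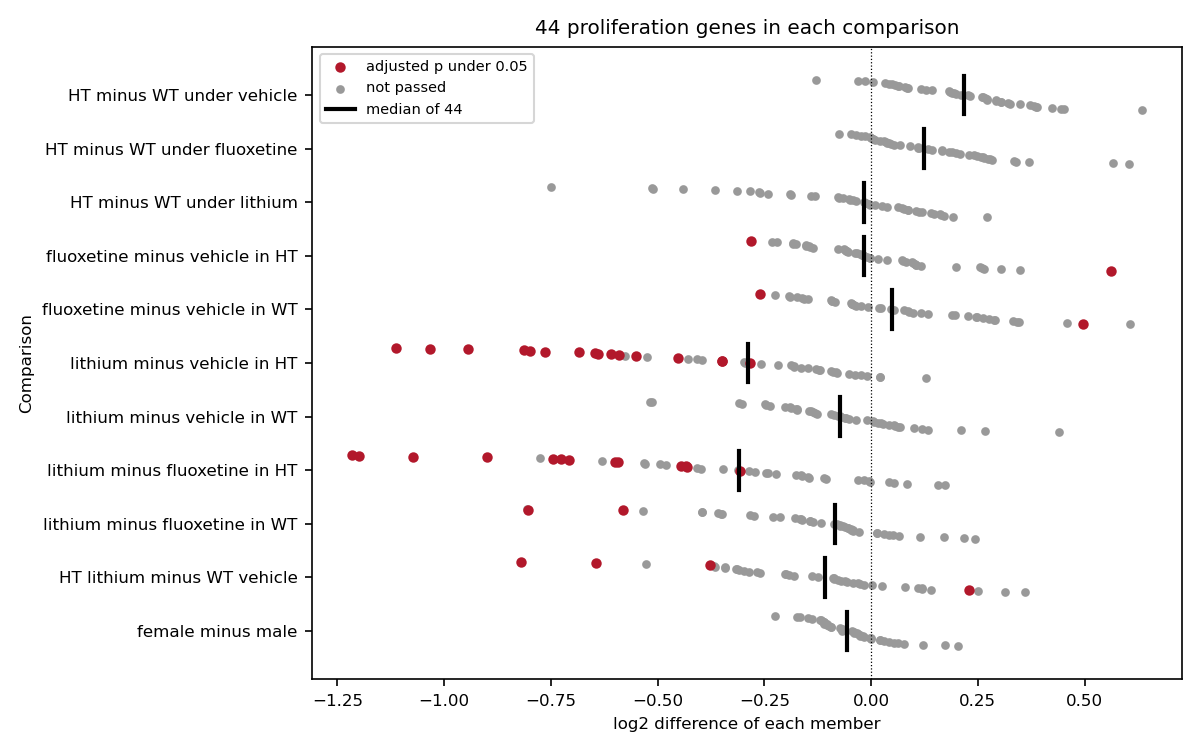
The log2 difference of each of the 44 members (horizontal axis) in 11 comparisons (vertical axis); each point is a member, red where its adjusted p was under 0.05, and the black bar is the median. The medians are -0.29 for lithium minus vehicle in HT, -0.07 for lithium minus vehicle in WT and 0.22 for HT minus WT under vehicle.

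Fluoxetine moved few members. In HT fluoxetine against HT vehicle 1 member rose and 1 fell, where 6.84% and 5.96% of all genes passed in those directions and the members were called no more often. The median was -0.02. Anln, anillin of the cleavage furrow, which myelinating oligodendrocytes of the mouse also express, ranged from 235 to 562 with a median of 326 normalised counts in HT fluoxetine, against 142 to 325 with a median of 230.2 in HT vehicle. The ranges overlapped, and 5 HT fluoxetine libraries were above every HT vehicle library. It rose by 0.56 (SE 0.168, adjusted p = 0.0212, limma). Mcm2 ranged from 80.6 to 117 with a median of 101 in HT fluoxetine and from 99.97 to 139 with a median of 123 in HT vehicle. All 10 HT fluoxetine libraries were below the HT vehicle median, and Mcm2 fell by 0.28 (SE 0.0961, adjusted p = 0.0444, limma). Mcm5 at -0.17 (adjusted p = 0.0741) and Hmmr, a spindle protein, at 0.35 (adjusted p = 0.0761) did not pass. Of the markers, 3 of 10 microglial and 2 of 10 endothelial markers rose, 1 of 11 neuroblast markers fell and no precursor or stem cell marker passed. The count was 0 in limma, edgeR and DESeq2 on the 54 libraries, 4 (1 higher and 3 lower) when the bulb markers were a covariate, and 1 without the libraries under 20 counts of Eomes. It was also 1 without any of 12 single libraries: HT fluoxetine female 1, 2 and 4 and male 2, 3 and 5, and HT vehicle female 3, 4 and 5 and male 1, 4 and 5.

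In WT fluoxetine against WT vehicle 1 member rose and 1 fell, where 3.98% and 3.41% of all genes passed in those directions, and the median was 0.05. Mcm5, a helicase subunit, ranged from 110 to 131 with a median of 128 normalised counts in WT fluoxetine, against 139 to 167 with a median of 146 in WT vehicle. The ranges did not overlap, and Mcm5 fell by 0.26 (SE 0.0669, adjusted p = 0.012, limma). Cdc45 ranged from 35.9 to 56.5 with a median of 43.5 in WT fluoxetine and from 20.5 to 46.9 with a median of 30.5 in WT vehicle, and rose by 0.50 (SE 0.139, adjusted p = 0.0218, limma). Ccna2 at 0.33 (adjusted p = 0.0762) and Anln at 0.46 (adjusted p = 0.0791) did not pass. Anln had medians of 301 in WT fluoxetine and 226 in WT vehicle. Of the markers, 1 of 8 neural stem cell and 2 of 10 endothelial markers fell and no precursor or microglial marker passed. Without the libraries under 20 counts of Eomes, or without WT vehicle female 4, the count was 1. As an interaction, the fluoxetine effect in HT minus that in WT had a median of -0.08. None of the 44 passed in limma, edgeR or DESeq2, where 0.042% of all genes passed in limma. An unadjusted p under 0.05 in limma was reached by 2 members. Racgap1 at -0.19 (adjusted p = 0.405) and Hmmr at 0.39 (adjusted p = 0.437) had the smallest p-values. Between females and males 34 of 44 members were below 0, with a median of -0.06. None passed in limma, edgeR or DESeq2, where 0.132% of all genes passed in limma. An unadjusted p under 0.05 in limma was reached by 2 members. Ccnb1 was at -0.22 (adjusted p = 0.538) in females against males.

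The members were also compared within groups. For each library, the deviation of Top2a from the mean of its group of genotype, treatment and sex was set against that of the other 43 members and of 9 marker lists, 52 relations over 58 libraries. Permutation p-values used 100000 exchanges within groups, and 1e-05 is the smallest they can give. Mki67 followed Top2a most closely, with a Pearson r of 0.738 and a Spearman rho of 0.780 (permutation p = 1e-05 for both, adjusted p = 0.00013). Ube2c (r = 0.704), Cenpf (r = 0.694), Prc1 (r = 0.624) and Foxm1 (r = 0.569), the factor of G2 transcription, came next. Of the 43 members 23 had an adjusted p under 0.05 by both measures, 11 had an r over 0.5, and the median r was 0.351. Leaving out the 2 libraries farthest from the median of Top2a, WT fluoxetine male 1 and WT vehicle male 3, gave 0.714 for Mki67. Values of 1 library share its depth and its dissection, and their part in these correlations was not tested.

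Not every member moved with Top2a. Racgap1 (r = -0.240), E2f1 (r = -0.120) and Kif23 (r = -0.060) were the 3 below 0, with adjusted permutation p from 0.162 to 0.753. Helicase subunits were in between, from 0.0122 for Mcm5 to 0.322 for Mcm3, none with an adjusted p under 0.05. Mcm6, which did not overlap between HT lithium and HT vehicle, had an r of 0.210 (adjusted permutation p = 0.227).

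Among the marker lists, the mean level of the 10 oligodendrocyte precursor markers followed Top2a with an r of 0.565 and a rho of 0.581 (permutation p = 8e-05 and 6e-05, adjusted p = 0.00052 and 0.00039), and with an r of 0.551 without the same 2 libraries. The 8 neural stem cell markers gave an r of 0.475 and a rho of 0.469 (adjusted permutation p = 0.00514 and 0.0052), and 0.545 without those libraries. In the 10 libraries under 20 counts of Eomes r was 0.136 for the precursor and 0.117 for the stem cell markers, and in the other 48 it was 0.639 and 0.515. That difference was not tested. Microglial markers gave an r of -0.012 (adjusted permutation p = 0.957) and endothelial markers an r of -0.003 (adjusted permutation p = 0.985). The 8 markers of cortical excitatory neurons gave an r of -0.347 and a rho of -0.358 (adjusted permutation p = 0.0473 and 0.0326), and -0.271 without the same 2 libraries. Neuroblast markers gave an r of 0.268 and a rho of 0.207 (adjusted permutation p = 0.143 and 0.236). For the olfactory bulb output markers, which fall into separate sets of libraries, r was -0.213 in the 10 libraries under 20 counts of Eomes and 0.107 in the other 48.

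**Figure D4:**
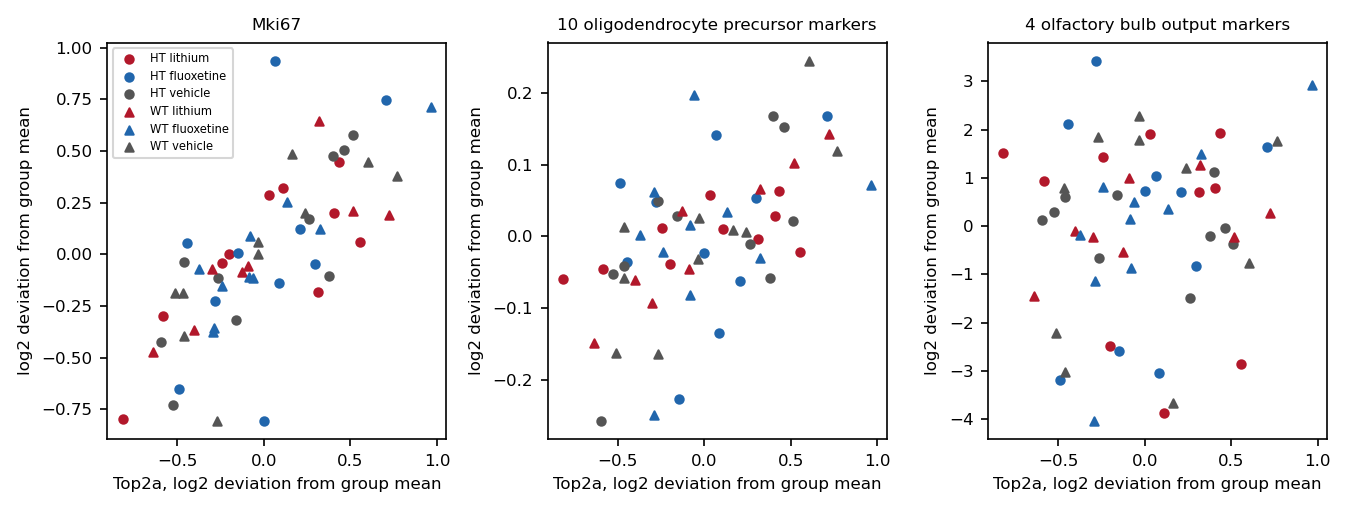
Deviation of each of 58 libraries from its group mean, for Top2a (horizontal axes, log2) against Mki67, the mean of 10 oligodendrocyte precursor markers and the mean of 4 olfactory bulb output markers (vertical axes, log2); colours are treatments, circles HT and triangles WT. The first panel has r = 0.738 and the second r = 0.565, while in the third libraries with bulb markers far below 0 are found at high and low Top2a.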

How the data were processed

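Prefrontal cortex RNA of 58 mice had been sequenced from stranded mRNA libraries, per the labels' protocols. The submitters' processing notes name Salmon 0.11.2, R 3.6.0, DESeq2 1.19.11 and GRCm38, without roles; the annotation release is not given in the sources used here. The authors deposited 1 table of normalised counts, a signal in which each library had been divided by its own size factor. Every value was a whole multiple of the library's step (0.75 to 1.27) within a tolerance of 0.01, in 100% of values. Whole reads were recovered for 54 libraries, and in the other 4 the step lay too near 1. Recovered reads per library, 23471676 to 38561389, set the precision, and counting intervals are not printed.

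Groups came from the labels. Symbols, exon lengths and gene positions came from the GENCODE annotation supplied for GRCm38, and 18077 of 18088 IDs had a symbol. limma 3.58.1 (R 4.3.3) was fitted with a variance trend to log2(value + 1) of 16669 genes with a mean of at least 10, 1 coefficient per genotype, treatment and sex, with contrasts averaged over sex. The 1419 genes below that mean were left out. A gene passed at a Benjamini-Hochberg adjusted p under 0.05 over all genes tested. A test for normalised values was used because the deposited values are not raw counts. edgeR 4.0.16 (quasi-likelihood) and DESeq2 1.42.0 on the recovered reads of 54 libraries were alternatives. The scripts were tested on simulated data. Over 112 pairs of replicates, differences were at least 3.08 times counting noise, so no library was counted as a duplicate.

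Each member could be named. Values per library were given for up to 6 members that passed a comparison, or for the 4 with the smallest p where fewer than 4 passed; Top2a, Mki67, Cdk1, Mcm2 and Pcna could be described throughout, and up to 4 genes of every other list were named. Members and lists were chosen with earlier results of these data known, so counts over them are not independent support. Counts of members above or below 0, or at an unadjusted p under 0.05, are given without the share of all genes. The comparisons of HT lithium with HT fluoxetine and WT vehicle, and of WT lithium with WT fluoxetine, were chosen after seeing the data. Orc1, Lin54, Cdkn2a, Tmem212 and Ccdc153 of the lists were not analysed here, and Dlgap5 and Dynlrb2 were below the minimum mean.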

Additional observations from a re-analysis of the deposited data

Results flagged for a closer look

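Among 32 named members in 6 groups each, 12 values stood apart from the rest of their group by Dixon's test at the 95% level, where chance gives about 1 in 20 of 192. HT fluoxetine male 1 was the highest of its group in 6 of them. It had 132 normalised counts of Tpx2 (next 104), 65.3 of Pbk (next 36.1), 30.0 of Aurkb (next 19.8), 55.7 of Ube2c (next 31.7), 69.6 of Nusap1 (next 48.3) and 25.7 of Bub1 (next 17.5). Without it, 7 members passed in HT lithium against HT fluoxetine. HT vehicle female 2 had 1134 of Pcna (next 962). HT lithium male 5 had the lowest Ube2c of its group, 4.64 (next 10.6). WT lithium female 1 had the lowest Ccnb1, 21.6 (next 32.2). WT fluoxetine female 2 had the lowest Racgap1, 309.6 (next 378). WT vehicle female 5 had 445 of Anln (next 266) and WT vehicle male 1 had 35.5 of Ccnb2 (next 26.6). No member passed a test of the difference in drug response between HT and WT.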

How the results depend on the processing

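The alternatives were quantile normalisation, no variance trend, a minimum mean of 50 or none, added pseudocounts of 0.5 or 10, the compared groups alone (not run for the averaged genotype and sex comparisons, which use all groups), a replicate block, an olfactory bulb covariate, count tests and each library left out. Those without libraries of low or high Eomes, and limma on 54 libraries, were chosen after seeing the data. No named difference that passed changed its sign, and every median over the members stayed within the SD between libraries (0.135). That SD is larger than several of the medians, so it cannot show that those were stable. With 1 library left out, the median for fluoxetine against vehicle in HT ran from -0.032 to 0.014.

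Counts of members that passed moved as follows, with the cause not tested unless stated. Shares of all genes under these settings are given only for lithium in HT on 54 libraries, in the Results. With a mean of at least 50, which left 22 members, they were 9 for lithium in HT, 1 for fluoxetine in WT, 6 for lithium against fluoxetine in HT and 1 in WT. With the compared groups alone the last was 1. With the replicate block, fluoxetine in HT gave 1 and lithium in HT 15, but replicate numbers were not taken as pairs: over 140 same-numbered pairs of libraries within a sex the median r of their deviations was -0.02, and for 10 of 58 libraries the closest library of another group had the same number. With the bulb covariate the counts were 4 for fluoxetine in HT, 1 for lithium in WT and 22 for lithium against fluoxetine in HT. Without low-Eomes libraries they were 1 for fluoxetine in HT, 1 for fluoxetine in WT, 8 for lithium against fluoxetine in HT and 1 for HT lithium against WT vehicle. Without high-Eomes libraries they were 1 for HT against WT under fluoxetine and 1 for lithium against fluoxetine in WT. On 54 libraries, with fewer HT vehicle samples, fluoxetine in HT gave 0 in limma, edgeR and DESeq2, and lithium in HT gave 6, 7 and 7.

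Leaving out 1 library gave 10 to 18 for lithium in HT, 0 to 2 for lithium in WT, 1 to 3 for fluoxetine in HT and in WT, 7 to 17 for lithium against fluoxetine in HT, 1 to 5 in WT, and 2 to 6 for HT lithium against WT vehicle. Every other comparison stayed at 0. The spread between libraries was nearest the counting error for Aurka and Birc5, at 1.06 and 1.17 times it. The counting error itself was largest for Aurkb and Bub1, at 28.9% of the mean for each, with a median of 11 reads.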
